A study of Mus musculus with 3 samples.

Results

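The Clec genes encode C-type lectins and their relatives, and 31 of them were measured among 22087 named genes on Affymetrix arrays of sorted mouse tumour stroma. The members were all probe sets for which the platform annotation gives a single gene symbol of the form Clec, a number and a letter. These were 31 probe sets for 31 genes, so every gene was read by 1 probe set. A probe set annotated to both Clec9a and Clec1b fell outside this rule, and Clec9a has no value among the members. All 3 samples form a single group, tumours of the genotype Dicer1 +/-, from which live cells negative for PECAM1, an endothelial surface protein, and for the red fluorescent protein tdTomato were sorted as stroma. The series title names the tumours ASD+/-, which the labels do not spell out, and sets them against ASD+/+ tumours, which were not analysed here. Tumour type, strain, sex, age and the driver of tdTomato are not stated in the labels used here. The labels do not tie the samples to separate animals.

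C-type lectins share a fold that in many members binds sugars with the help of calcium, and in others binds proteins or lipids. Myeloid cells carry many of them as receptors for fungi, mycobacteria and dying cells. Activating members signal through the kinase Syk, either by a tyrosine in their own tail or through the adaptors FcRgamma (Fcer1g) and DAP12 (Tyrobp), and inhibitory members recruit the phosphatases Ptpn6 and Ptpn11. Other members are ligands of natural killer cell receptors, markers of endothelium, or proteins secreted into cartilage, bone and connective tissue.

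The values are log2 intensities as deposited, and a difference of 1 is a 2-fold difference in signal. A gene was called detected on an array when it exceeded the 95th percentile of receptor genes of smell, taste and the vomeronasal organ there, which lay at 5.16, 5.11 and 5.20 in samples 1 to 3. Levels of different genes were not ranked, since probe sets differ in brightness. Markers of the labelled stroma were present, with 8 of 8 fibroblast genes detected on all arrays, and so were leukocyte markers, with 8 of 8 macrophage, 11 of 11 neutrophil and 6 of 6 measured T cell genes. Pecam1, the marker the gate removes, was also above background, at 8.02, 7.20 and 8.25 in samples 1 to 3. Dicer1 was at 8.10, 8.10 and 8.08, and the position of its probe set relative to the altered allele is not known. Sample 1 stood apart from the others in Xist (9.78, against 3.43 and 3.49) and in the Y-linked gene Eif2s3y (3.86, against 8.51 and 8.71). Sample 1 was therefore not a technical repeat of samples 2 or 3, while whether samples 2 and 3 came from separate animals is not given, and an SD over the 3 samples includes this split.

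Of the 31 Clec genes 20 (64.5%) were detected on all 3 arrays, 1 (Clec4g) on 2 arrays and 10 on none. Among the 20627 other named genes outside the receptor genes 60.5% were detected on all 3 arrays, so the share of Clec genes lay near the background. The same held for detection on at least 1 array, with 21 Clec genes (67.7%) against 66.0% of other genes. By role, the counts were small and no difference between roles was tested. All 6 activating receptors that couple to FcRgamma or DAP12 and all 4 measured secreted members were detected on every array, against 4 of 6 genes of the DCIR and MICL group, 3 of 7 of the Clec2 group and 1 of 5 endocytic and endothelial genes. Of the receptors with a tail tyrosine of their own, Clec7a was detected and Clec1b was not. A probe set below background does not show that its gene is silent in these cells.

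**Figure D1:**
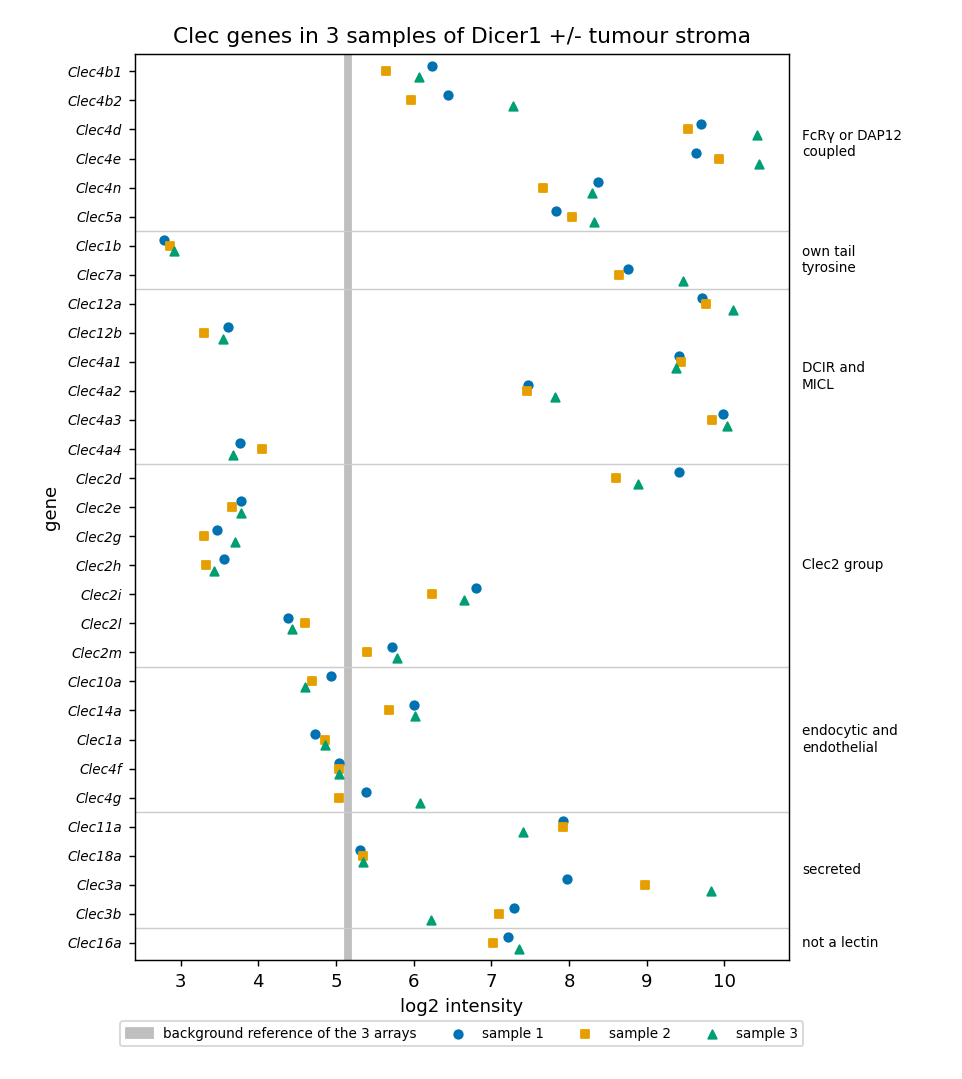
Log2 intensity (horizontal axis) of the 31 Clec genes (rows, grouped by role), with 1 point for each of the 3 samples and the background reference of the arrays as a grey band. The 10 genes detected on no array have all 3 points left of the band, among them Clec1b between 2.79 and 2.92 and Clec4f at 5.04 in each sample.

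Across samples, sample 3 held the highest and sample 2 the lowest value of most detected members. Of the 21 genes detected on at least 1 array, 13 (61.9%) were highest in sample 3, where 32.7% of other detected genes were. Likewise 13 of 21 were lowest in sample 2, against 29.3% of other genes, and 1 was highest in sample 2, against 32.5%. Sample 1 held the highest value of 5 members (28.8% of other genes) and the lowest of 5 (31.2%), and sample 3 the lowest of 3 (33.3%). The count of 1 became 3 after quantile normalization or median centring. Exactly equal values on at least 1 pair of arrays, whose origin was not tested, occurred in 3 of the 31 members (Clec4f, Clec11a and Clec18a) and in 15.9% of other genes. The median difference from a gene's own mean was 0.0070, -0.18 and 0.16 for the detected members in samples 1 to 3, against -0.0070, 0 and -0.00071 for the other genes. The median range, that is the highest minus the lowest value of a gene, was 0.57 for the members and 0.31 for other genes, and the median SDs were 0.30 and 0.16. These are descriptions of 3 arrays, and no test across samples was possible with a single group and 1 array for each sample.

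A range above 1 was found in 4 of the 21 members (19.0%), against 5.68% of the 13615 other detected genes. The 4 genes were Clec3a (1.85), Clec4b2 (1.32), Clec3b (1.07) and Clec4g (1.04). They did not vary together: Clec4b2 and Clec4g had their highest value in sample 3 and their lowest in sample 2. Clec3a also peaked in sample 3 but had its lowest value in sample 1, and Clec3b peaked in sample 1 with its lowest value in sample 3. A range is set by its highest and lowest sample, so leaving out either one lowers it by construction. Without sample 1 only Clec4b2 and Clec4g passed, without sample 2 only Clec3a and Clec3b, and without sample 3 only Clec3a, at 1.01. Just below the threshold lay Clec4d (0.89), Clec7a (0.82), Clec2d (0.81) and Clec4e (0.81). Ranges above 1 were not particular to the family. They occurred in 5 of 11 detected lectins and counter-receptors with other symbols, whose median range was 0.97. The same held for 4 of 11 neutrophil, 4 of 7 dendritic and 5 of 6 T cell markers. The lists of monocyte markers, type 1 dendritic markers and signalling partners held none.

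**Figure D2:**
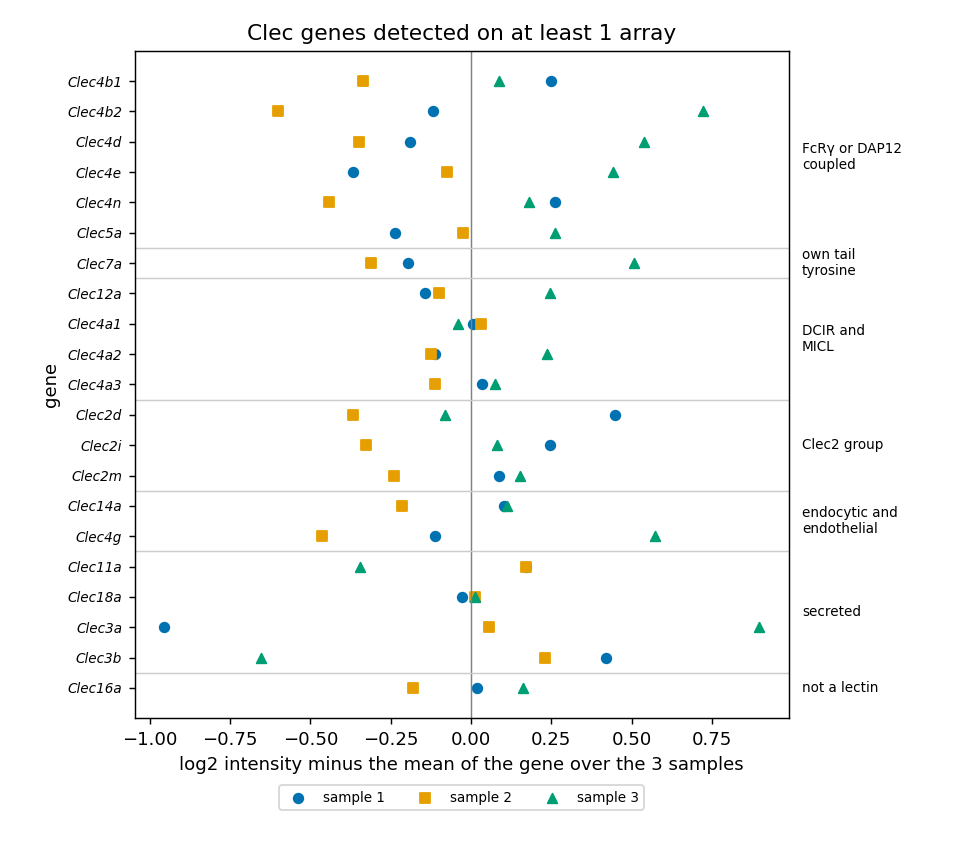
Difference of each sample's log2 intensity from the gene's mean over the 3 samples (horizontal axis) for the 21 Clec genes detected on at least 1 array (rows, grouped by role). Sample 3 is the rightmost point for 13 genes and sample 2 the leftmost for 13; where samples tie, as samples 1 and 2 do for Clec11a, 1 point covers the other.

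Of the activating receptors, Clec4d, Clec4e, Clec5a and Clec7a were clearly detected and highest in sample 3. Clec4e encodes Mincle, which recognises the mycobacterial cord factor and signals of dying cells, and was at 9.63, 9.93 and 10.45 in samples 1 to 3 (mean 10.00 ± 0.41, SD, n = 3). Clec4d encodes MCL, a partner that pairs with Mincle, and was at 9.69, 9.53 and 10.42 (mean 9.88 ± 0.47, SD, n = 3). Both stood highest in sample 3, Clec4d by 1.66-fold over sample 1 and 1.85-fold over sample 2, and Clec4e by 1.75-fold and 1.43-fold. Clec5a, the DAP12-coupled receptor MDL-1 of monocytes and neutrophils, was at 7.83, 8.04 and 8.32. It had the same order of samples as Clec4e, over a smaller range of 0.50. Clec7a, which encodes the beta-glucan receptor Dectin-1, was at 8.76, 8.65 and 9.46, so that samples 1 and 2 differed by 0.11 and sample 3 lay 0.70 or more above them.

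Of the remaining activating receptors, a pair had its highest value in sample 1. Clec4n encodes Dectin-2, a receptor for fungal mannans, and was at 8.37, 7.67 and 8.29 in samples 1 to 3. Clec4b1, the dendritic cell receptor DCAR, was at 6.24, 5.65 and 6.07. Both were low in sample 2, and sample 3 minus sample 1 was -0.08 for Clec4n and -0.16 for Clec4b1. Clec4b2, the closely related receptor DCAR1, was at 6.44, 5.96 and 7.28, low in sample 2 like Clec4b1 but highest in sample 3, 2.50-fold above sample 2. Over the 6 FcRgamma and DAP12 coupled members, the median differences from the gene mean were -0.15, -0.34 and 0.35 in samples 1 to 3, and 4 of 6 were highest in sample 3.

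RefSeq promoter windows were at hand for 25 members, and the 250 bases before the start were searched on both strands for 3 motifs: GAGGAA, the core of PU.1 sites, TTNNGNAA for C/EBP and TGANTCA for AP-1. The windows of Clec4d, Clec4e and Clec7a are shown as examples of genes highest in sample 3. That of Clec2d, a ligand of natural killer cell receptors described further on, is an example of a gene highest in sample 1. Capitals mark the motif matches on either strand (TTCCTC is the PU.1 core on the other strand), which do not overlap in these windows. They come from GRCm38.p6 at chr6:123261857-123262106, plus strand (Clec4d), chr6:123289872-123290121, minus strand (Clec4e), chr6:129472780-129473029, minus strand (Clec7a) and chr6:129180365-129180614, plus strand (Clec2d), and each is written from 5′ to 3′ on the strand of its gene.
Clec4d: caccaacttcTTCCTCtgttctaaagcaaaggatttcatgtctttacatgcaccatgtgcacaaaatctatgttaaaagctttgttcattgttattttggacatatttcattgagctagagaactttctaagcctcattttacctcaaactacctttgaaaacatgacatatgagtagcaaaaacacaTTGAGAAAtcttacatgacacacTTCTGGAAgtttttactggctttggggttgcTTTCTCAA
Clec4e: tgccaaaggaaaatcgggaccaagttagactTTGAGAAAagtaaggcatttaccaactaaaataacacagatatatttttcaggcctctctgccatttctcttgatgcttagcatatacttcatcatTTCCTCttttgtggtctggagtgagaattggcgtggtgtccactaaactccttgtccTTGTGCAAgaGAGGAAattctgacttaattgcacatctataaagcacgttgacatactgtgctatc
Clec7a: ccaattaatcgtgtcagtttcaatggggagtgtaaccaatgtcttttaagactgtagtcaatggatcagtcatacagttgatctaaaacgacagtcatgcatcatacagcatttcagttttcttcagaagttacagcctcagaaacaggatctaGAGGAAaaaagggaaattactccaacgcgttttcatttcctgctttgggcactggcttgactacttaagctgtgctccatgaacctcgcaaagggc
Clec2d: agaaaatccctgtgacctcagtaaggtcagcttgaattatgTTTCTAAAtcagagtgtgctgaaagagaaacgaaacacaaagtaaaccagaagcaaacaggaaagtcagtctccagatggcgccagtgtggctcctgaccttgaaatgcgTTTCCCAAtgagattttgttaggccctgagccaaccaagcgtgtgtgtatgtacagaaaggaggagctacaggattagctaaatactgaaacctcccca
The PU.1 core appeared 1 time in the Clec4d window, 2 times in Clec4e, 1 time in Clec7a and 0 times in Clec2d. The C/EBP letters appeared 3, 2, 0 and 2 times in that order, and the AP-1 letters in none of the 4 windows. Other members had the PU.1 core but not their highest value in sample 3, among them Clec4b1, highest in sample 1, and Clec11a, lowest in sample 3. Clec4a2 was highest in sample 3 and its window lacked the core.

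Over the 25 windows, the PU.1 core was present in 12 of 17 members detected on all arrays and in 1 of the 8 others. Members and other genes were counted by 1 window each, the first listed. The shares of all 32851 promoter windows of the same length were not reduced to 1 window for each gene. The PU.1 core was present in 23.3% of all windows. It was in 22.8% of windows of other genes detected on all arrays and 22.9% of those not detected on all. The C/EBP letters were in 10 of 17 detected members and in 3 of the 8 others, against 36.8% of all windows, 28.2% of those of other genes detected on all arrays and 39.1% of those not detected on all. The AP-1 letters were in 2 of 17 and 3 of 8, against 6.75% of all windows, 4.62% of those of other detected genes and 8.19% of those not detected on all. Several of these genes are close paralogs and may share promoter sequence, so the windows are not independent, and a match is a description of letters, not a binding site.

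Markers of myeloid cells also differed between samples, in orders that some of these receptors shared and others did not. The neutrophil list had 11 of 11 genes detected, 10 that peaked in sample 3 and 8 with their lowest value in sample 1, and the log2 of its summed intensity was 14.42, 14.61 and 14.88 in samples 1 to 3. The dendritic list had 7 of 7 detected and 7 lowest in sample 2, with summed levels of 12.81, 12.42 and 12.97. The type 1 dendritic list had 6 of 6 detected, with 9.97, 9.83 and 10.38, but was divided, with 4 genes lowest in sample 2 and 2 in sample 1. The monocyte list (5 of 5 detected) had 12.90, 13.02 and 13.12, but its members were divided, with 3 of 5 highest in sample 3 and F13a1 (9.84, 10.09 and 9.22) and Vcan (9.24, 9.70 and 9.01) highest in sample 2 and lowest in sample 3. Clec4e and Clec5a had the order of samples of the neutrophil and monocyte sums. Clec4d, Clec7a and Clec4b2 had that of both dendritic sums, and Clec4n and Clec4b1 had neither order. Members of other roles shared these orders, among them Clec12a and Clec3a the first, and Clec4a2, Clec4a3 and Clec16a the second. Few orders are possible with 3 samples, and the share of all genes with each order was not counted, so a shared order says little. A summed level follows the brightest probe sets of its list. Macrophage genes differed from all these lists, with 6 of 8 lowest in sample 3 and summed levels of 13.01, 13.08 and 12.47. No marker of the neutrophil, monocyte, macrophage or dendritic lists was below background. The part of these cells in the receptor values was not tested, and in bulk RNA fewer cells of a type and less RNA per cell cannot be told apart.

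The signalling genes downstream of these receptors were present as a whole. All 14 measured partners were detected on every array, against 60.5% of other named genes. Of the 14, 11 peaked in sample 3 and 9 had their lowest value in sample 2, against 32.7% and 29.3% of other detected genes. The adaptors Fcer1g (11.16, 11.17 and 11.38 in samples 1 to 3) and Tyrobp (11.96, 11.82 and 12.04) varied by 0.22 each. Card9, the adaptor that links Syk to NF-kappaB in myeloid cells, varied more, at 6.72, 7.06 and 7.54. Its order of samples was that of Clec4e and Clec5a, and Fcer1g had this order too. So did Plcg2, a phospholipase activated by Syk, at 7.87, 7.93 and 8.67, while Syk itself was at 8.57, 8.35 and 8.82. None of the 14 partners had a range above 1.

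The DCIR and MICL group, which holds inhibitory receptors, had a median range of 0.27 over its 4 detected members, against 0.76 for the 6 FcRgamma and DAP12 coupled genes. Clec12a encodes MICL, an inhibitory receptor of granulocytes and monocytes, and was at 9.72, 9.76 and 10.11 in samples 1 to 3 (mean 9.86 ± 0.21, SD, n = 3). Clec4a2, the inhibitory receptor DCIR, was at 7.47, 7.46 and 7.82. For both, samples 1 and 2 nearly coincided and sample 3 lay 0.35 to 0.39 above them. Clec4a3, also called Dcir3, was at 9.99, 9.84 and 10.03, and Clec4a1, also called Dcir4, at 9.42, 9.44 and 9.37, with a range of 0.07 for Clec4a1. Clec4a4 (Dcir2), known from a subset of dendritic cells, stayed below background at 3.77, 4.05 and 3.68, as did Clec12b at 3.61, 3.31 and 3.55. The phosphatase Ptpn6, which such inhibitory receptors recruit, was at 9.80, 9.45 and 10.01, while the range of Ptpn11 was 0.07. Genes of the DCIR group are close relatives, and whether a probe set also reads its neighbours was not tested.

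Clec1b encodes CLEC-2, the platelet receptor of podoplanin, and was far below background at 2.79, 2.87 and 2.92. Its ligand Pdpn, a surface protein of fibroblasts and lymphatic endothelium, was detected at 8.24, 8.77 and 7.98, highest in sample 2. Of the 5 measured megakaryocyte and platelet markers 3 were detected on all arrays. These were Pf4, at 9.31, 9.38 and 8.06, and, close to background, Itga2b (5.50, 5.43 and 5.21) and Ppbp (5.50, 5.31 and 5.39). Gp9 was detected on 2 arrays, and Gp6, the platelet collagen receptor, on none, at 4.72, 4.20 and 4.43.

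The Clec2 group held 3 detected members, each lowest in sample 2. Clec2d encodes Clr-b, which leukocytes display to the inhibitory receptor NKR-P1B, and was at 9.42, 8.60 and 8.89 in samples 1 to 3 (mean 8.97 ± 0.41, SD, n = 3). Sample 1 was 1.76-fold above sample 2, and sample 3 lay between them. Clec2i encodes Clr-g, a ligand of NKR-P1F, and had the same order at 6.81, 6.23 and 6.64. Clec2m was at 5.72, 5.39 and 5.78, close to background. The receptor genes of both pairs were detected: Klrb1b, the receptor of Clr-b, was at 5.84, 5.46 and 5.78, and Klrb1f, the receptor of Clr-g, at 6.42, 5.62 and 5.97. Ligand and receptor thus had the same order of samples in both pairs, with sample 1 highest and sample 2 lowest. Cd69, a C-type lectin of activated lymphocytes, had that order too, at 9.55, 8.42 and 8.76. Klrb1b lay close to background, and its values in samples 1 and 3 nearly coincided. Sample 2 was lowest for 13 of the 21 detected members, so a low value there was not particular to these pairs.

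T cell markers had the order of samples of Clec2d and Clec2i, but not that of Clec2m, which was highest in sample 3. The activating receptors Clec4n and Clec4b1 also had the T cell order. All 6 measured T cell genes were detected, each with its peak in sample 1 and its lowest value in sample 2, and the log2 of their summed intensity was 10.54, 8.52 and 9.66 in samples 1 to 3. B cell genes (4 of 4 detected) were all highest in sample 1, with summed levels of 11.46, 10.46 and 10.36. Natural killer genes (4 of 5 detected on all arrays, Klrk1 on 2) had 9.04, 8.80 and 9.46, where the highest sum, in sample 3, followed the single gene Nkg7 (7.90, 7.90 and 8.96). Of the 5 genes 3 were highest in sample 1, and the median differences from the gene mean were 0.31, -0.32 and -0.16. Their part in the Clec2d and Clec2i values was not tested. The remaining members Clec2e, Clec2g, Clec2h and Clec2l lay between 3.30 and 4.60 on all arrays, below background.

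The secreted members held the widest range of the 31 genes, 1.85 for Clec3a, and a range of 0.04 for Clec18a. Clec3a, a lectin of cartilage, was at 7.97, 8.98 and 9.82 in samples 1 to 3 (mean 8.93 ± 0.93, SD, n = 3), 3.61-fold higher in sample 3 than in sample 1. Sample 2 lay between them, 1.01 above sample 1 and 0.84 below sample 3. Clec3b encodes tetranectin, a plasminogen-binding protein of plasma and connective tissue, and was at 7.29, 7.10 and 6.22, with sample 3 apart and 0.47 times the level of sample 1. Clec11a, the bone-forming growth factor osteolectin, was at 7.92, 7.92 and 7.40, equal in samples 1 and 2, so that its SD of 0.30 may understate the spread. Clec18a was at 5.31, 5.35 and 5.35, between 0.14 and 0.23 above the background reference, with equal values in samples 2 and 3.

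Most cartilage markers had the order of samples of Clec3a, an order that the neutrophil and monocyte sums shared. All 6 cartilage genes were detected with their lowest value in sample 1, and 5 peaked in sample 3. The log2 of their summed intensity was 10.93, 11.62 and 11.94 in samples 1 to 3. Acan, the main proteoglycan of cartilage, was at 8.10, 9.07 and 9.94, and Col2a1, the cartilage collagen, at 8.10, 9.11 and 9.66. Their ranges were 1.84 and 1.56, against 1.85 for Clec3a, while Sox9 had a range of 0.77. Comp, a matrix protein also made in tendon, had another order, at 10.02, 10.53 and 10.32. Beside Clec3b and Clec11a, all 8 fibroblast markers were lowest in sample 3 too, but highest in sample 2, with summed levels of 13.63, 14.05 and 13.04. Clec3b was highest in sample 1, so its order was not that of the fibroblast list. The part of cartilage cells and fibroblasts in these values was not tested.

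**Figure D3:**
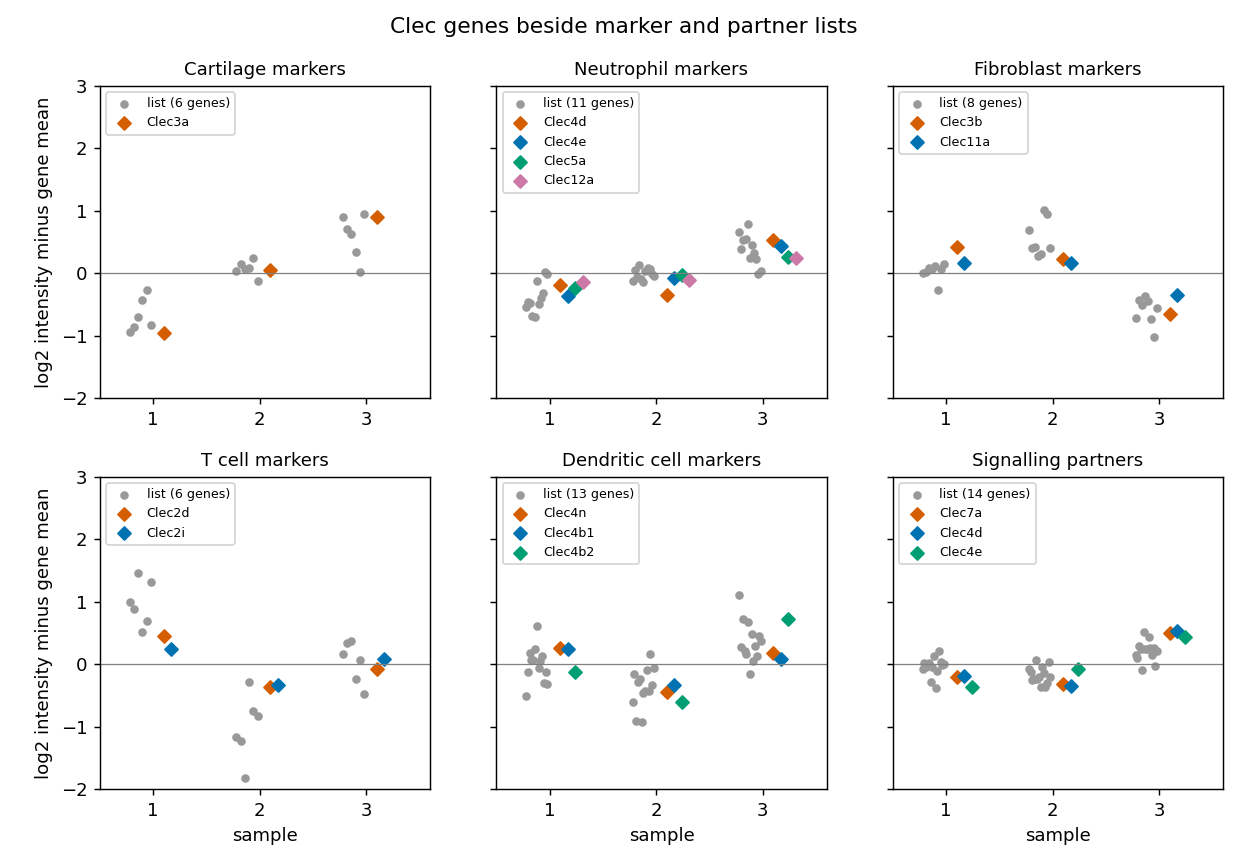
Difference of each sample's log2 intensity from the gene's mean (vertical axis) in the 3 samples (horizontal axis), for detected genes of marker and partner lists (grey points) and for Clec genes (coloured diamonds); the dendritic panel joins the dendritic and type 1 dendritic lists, 13 genes. Clec3a deviates by -0.95, 0.06 and 0.90 in samples 1 to 3, where the medians of the cartilage list are -0.76, 0.08 and 0.67. Clec4d, Clec4e, Clec5a and Clec12a are highest in sample 3 with most neutrophil genes, and Clec2d and Clec2i span less than most T cell genes.

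Among the endothelial and endocytic members, Clec14a, an adhesion receptor of blood vessels, was detected at 6.01, 5.69 and 6.01 in samples 1 to 3. Clec4g encodes LSECtin of sinusoidal endothelium and was at 5.39, 5.04 and 6.08, below background in sample 2, so its range of 1.04 has an uncertain lower end. Clec14a hardly differed between samples 1 and 3, and Clec4g was highest in sample 3. Of 7 endothelial markers 5 were detected on all arrays and Emcn on 1, 4 were highest in sample 3, and Stab2, a scavenger receptor of sinusoidal endothelium, was below background at 4.47, 4.40 and 4.23. The log2 of the summed endothelial intensity was 10.14, 10.40 and 9.80, and Lyve1, which lymphatic endothelium and some macrophages share, went against most of the list at 9.38, 9.90 and 7.13. The part of endothelial cells in the Clec14a and Clec4g values was not tested.

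Clec4f, Clec10a and Clec1a were not detected on any array. Clec4f, a receptor of Kupffer cells in the liver, was at 5.04 on each array, a value repeated exactly. Clec10a, the galactose receptor MGL1 of macrophages and dendritic cells, was at 4.94, 4.70 and 4.60, below background in all samples, and Clec1a, a receptor of endothelium and dendritic cells, at 4.74, 4.86 and 4.86. The macrophage lectins outside the Clec name were present. Mgl2, a close relative of Clec10a, was at 7.51, 6.80 and 8.09, and the mannose receptor Mrc1 at 10.26, 10.37 and 9.45, so that sample 3 was the highest for Mgl2 and the lowest for Mrc1. Cd209a, a dendritic cell lectin, was at 8.25, 7.41 and 9.06, and Olr1, a receptor of oxidised lipoprotein, at 7.77, 7.73 and 8.89. Of the 12 measured lectins and counter-receptors 10 were detected on all arrays and 7 of the 11 detected on at least 1 array were lowest in sample 2. Clec16a, an endosomal protein of autophagy that carries the family name without a lectin domain, was at 7.22, 7.02 and 7.36.

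The members cluster along the genome. In the RefSeq gene table of GRCm38.p6, 23 of the 31 genes lie on chromosome 6. Of these 23, 14 were detected on all arrays, as were 6 of the 8 genes elsewhere and 60.5% of other named genes. Counts by location are small, here and in the runs below, and no difference by location was tested. One unbroken run of 9 protein-coding genes holds Clec4a1, Clec4a3, Clec4a4, Clec4b1, Clec4a2, Clec4b2, Clec4n, Clec4d and Clec4e in this order, and 8 of the 9 were detected, all but Clec4a4. Neighbours in this run differed in their order of samples: Clec4n was highest in sample 1, and the adjacent Clec4d was highest in sample 3. A second run holds Clec2m, Clec12a, Clec12b and Clec1b, of which Clec2m and Clec12a were detected and the other two were not. Clec1a and Clec7a are also adjacent, with Clec7a detected on all arrays and Clec1a on none.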

How the data were processed

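RNA of 3 samples of sorted stroma was measured on 1 array each. The authors deposited log2 intensities, 1 per probe set, for 31873 probe sets. Partek is named in the submitters' processing notes, with no role. How background was corrected and probes were normalized and summarized is not stated there. That the scale is log2 was inferred from the values, 2.00 to 13.18. Of the probe sets, 23094 carry 1 symbol in GEO's platform annotation, 1764 carry several, and 7015 have none here. All 31 members matched RefSeq by gene identifier. Per gene the probe set with the highest mean was kept. The detection reference was the 95th percentile of 1438 probe sets of Olfr, Vmn and Tas receptor genes. Values within 1e-09 of each other were counted as equal.

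The members, role lists, partners and markers were chosen with earlier results of these data known. Every member was named. No test was made, since there is 1 group. Protein motifs were planned and not run, and promoter windows were searched in their place, a choice made after seeing the data. The number of arrays limits the precision. The calculations used Python 3.11.15, pandas 2.3.3 and numpy 2.4.6, and were tested on simulated data. Alternatives changed the normalization, the detection level, the range threshold, the filter and the samples.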

Additional observations from a re-analysis of the deposited data

Results flagged for a closer look

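The probe set annotated to both Clec9a, a dendritic cell receptor for exposed actin of dead cells, and Clec1b entered no comparison because it names 2 genes. It was above background on every array, at 6.59, 6.30 and 7.41 in samples 1 to 3, which is 1.43, 1.19 and 2.21 above the reference. The probe set that names Clec1b alone was below background on every array, at 2.79, 2.87 and 2.92. Of the 6 type 1 dendritic cell markers, 4 were lowest in sample 2, among them Xcr1 at 6.30, 5.94 and 6.85. The other 2, Cadm1 (6.83, 7.29 and 7.27) and Tlr3 (6.99, 7.25 and 7.67), were lowest in sample 1. Which gene the shared probe set reads was not tested.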

How the results depend on the processing

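The count of 20 detected Clec genes was 19 to 24 under the other backgrounds tried, except with the 99th percentile of the receptor genes, where it was 13, while the share of other genes was 38.1% there (60.5% before). The 4 genes with a range above 1 were 8 with a threshold of 0.8, 1 with a threshold of 1.5, and 1 to 2 with a sample left out. The count highest in sample 2, 1 gene, was 3 after quantile normalization and after median centring and 2 with the 90th percentile. With a sample left out, a smaller comparison by construction, the counts of highest members were 7 to 14 for sample 1, 3 to 6 for sample 2 and 14 to 17 for sample 3, and those of lowest members 6 to 14, 14 to 17 and 3 to 7. The spans of the list medians over samples were 0.32 to 0.61 for the FcRgamma and DAP12 coupled genes (0.70 with all samples), 0.0066 to 0.27 for the DCIR and MICL group (0.26), 0.17 to 0.57 for the Clec2 group (0.57) and 0.021 to 0.26 for the secreted genes (0.28), where the smallest came without sample 3, or for the Clec2 group without sample 2. The secreted span was 0.52 with the 99th percentile, which drops Clec18a from the list. Lists with fewer than 3 detected members were left out of this. Taking the mean of a gene's probe sets could not change a Clec gene, since each has 1. No paired analysis was possible because all samples belong to 1 group. The number of arrays and signal near background limit these values, and an SD over 3 samples is itself imprecise.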
